A study of Mus musculus with 4 samples.

Results

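Described here are 10 mouse genes of early B cell development, Rag1, Rag2, Dntt, Vpreb1, Vpreb3, Igll1, Cd79a, Cd79b, Ebf1 and Pax5, out of 32285 genes counted. They were chosen by name, not by their values, and were followed along the B cell stages of 4 single-cell libraries. The 4 groups are the growth plate region of mice given 1NMPP1, the growth plate region of mice given vehicle, the lumbar dorsal root ganglia (DRG) of mice given 1NMPP1, and the DRG of mice given vehicle. All mice, the vehicle animals too, carried a changed receptor kinase of sensory neurons, which 1NMPP1 can block, and in all of them the growth plate of the femur had been injured 7 d earlier. The 1NMPP1 mice were injected into the abdomen 48 h and 2 h before surgery with 17 µg/g from a 5 mM solution, and 40 µM of it was in their water afterwards, while controls received DMSO vehicle. The compound was thus given to the whole animal. No source used here gives an age or strain background, and the change to the kinase is named in the labels only as a genotype. With 1 library per group, differences have no replicate check and carry no p-value. How many animals went into a library no source used here says. Intervals are at 95% and cover counting error only.

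B cells are made in the bone marrow by cutting and joining the V, D and J segments of the immunoglobulin genes. The RAG1 and RAG2 proteins together make the cuts, and terminal deoxynucleotidyl transferase, the product of Dntt, adds bases at the joints that no template gives. Pro-B cells join the heavy chain gene first. The heavy chain is then tested in a pre-B receptor with a surrogate light chain, made of the products of Vpreb1 and Igll1, and the signalling pair CD79A and CD79B. Cells that pass divide several times as large pre-B cells, then rest as small pre-B cells and cut the light chain genes. EBF1 and PAX5 are the transcription factors that set and keep B cell identity.

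The growth plate libraries held 139703885 UMIs (counted RNA molecules) in 11807 barcodes with 1NMPP1 and 102693014 UMIs in 9560 barcodes with vehicle. The DRG libraries held 32791945 UMIs in 2612 barcodes with 1NMPP1 and 57303894 UMIs in 3675 barcodes with vehicle. Any pair of libraries shared 4 to 40 barcodes. The cells labelled growth plate were mostly blood cells by their markers: 10393 of 10541 kept cells with 1NMPP1 and 8391 of 8665 with vehicle, against 1332 of 2153 and 1160 of 2841 in the DRG. Of the B lineage cells, those with Xist and no Y-linked UMI made up 61.2% and 29.6% in the 1NMPP1 and vehicle growth plate, and 67.7% and 28.9% in the 1NMPP1 and vehicle DRG. Libraries thus mixed both sexes in unequal parts, and sex and treatment differ together.

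B lineage cells were found by 11 markers that are not among the 10 genes. They numbered 2278 with 1NMPP1 and 1898 with vehicle in the growth plate, 21.6% and 21.9% of the kept cells, and 294 with 1NMPP1 and 301 with vehicle in the DRG, 13.7% and 10.6%. All 11 markers were higher in the B lineage than in neutrophil-like cells of the same library. This follows from naming the cells by them and is no separate check. The summed level of the markers was 6517 to 10061 CPM (UMIs of a gene scaled to a fixed total of UMIs) in B lineage cells, against 68.8 to 141 CPM in neutrophil-like cells. The cells were then split by markers of stage, again none of the 10 genes, into pro-B-like, cycling pro-B-like, cycling pre-B-like, small pre-B-like, immature B-like and mature B-like cells. In the growth plate these stages held 212, 144, 732, 770, 281 and 131 cells with 1NMPP1 and 148, 101, 562, 679, 266 and 135 cells with vehicle. In the DRG they held 7, 9, 20, 114, 3 and 141 cells with 1NMPP1 and 21, 15, 52, 132, 5 and 76 cells with vehicle. The small pre-B-like clusters made up mainly of DRG cells scored 0.60, 0.74 and 0.29 for small pre-B markers. For immature B markers they scored 0.44, 0.62 and 0.29, so the line between these stages is uncertain there. Stages with fewer than 20 cells in a library are left out of the levels below. A further 8 and 7 growth plate cells were plasma cell-like, in which Rag1, Rag2, Dntt, Vpreb1, Igll1 and Pax5 had 0 UMIs, which allows up to 13.9 CPM with 1NMPP1 and 20.7 CPM with vehicle.

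The genes lie on 7 chromosomes in the GRCm38 annotation, and the clustered pairs are as follows. Rag1 (ENSMUSG00000061311, chr2:101638282-101649501, minus strand) and Rag2 (ENSMUSG00000032864, chr2:101624718-101632529, plus strand) face each other with 5.75 kb between them. Igll1 (ENSMUSG00000075370, chr16:16860671-16863985) and Vpreb1 (ENSMUSG00000059305, chr16:16868403-16870843) lie on the same minus strand, 4.42 kb apart. Dntt (ENSMUSG00000025014) is at chr19:41029275-41059525 on the plus strand. Cd79a (ENSMUSG00000003379) is at chr7:24897381-24902197, Cd79b (ENSMUSG00000040592) at chr11:106311341-106314762 and Vpreb3 (ENSMUSG00000000903) at chr10:75943057-75949657. Ebf1 (ENSMUSG00000057098, chr11:44617317-45008091) and Pax5 (ENSMUSG00000014030, chr4:44524757-44710487) are the long genes of the set, at 391 and 186 kb. Of the 50-base words in the last 500 bases of the Vpreb1 transcript, 33.9% also stand in Vpreb2, a near copy on the same chromosome, so counts of Vpreb1 are uncertain to that extent. No such word was shared with another gene for the other 9.

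The promoters of Vpreb1, Igll1 and Dntt are shown because these 3 genes followed each other most closely over the stages. Each runs 5′ to 3′ on the gene's own strand, from 250 bases before to 50 bases after the start in RefSeq, GRCm38.p6. Vpreb1 lies at chr16:16869206-16869505 (minus), Igll1 at chr16:16863936-16864235 (minus) and Dntt at chr19:41029025-41029324 (plus). Capitals mark CAGGTG, the E-box that E2A proteins bind, and CCCNNGGG, a core read by EBF1, on either strand.
Vpreb1: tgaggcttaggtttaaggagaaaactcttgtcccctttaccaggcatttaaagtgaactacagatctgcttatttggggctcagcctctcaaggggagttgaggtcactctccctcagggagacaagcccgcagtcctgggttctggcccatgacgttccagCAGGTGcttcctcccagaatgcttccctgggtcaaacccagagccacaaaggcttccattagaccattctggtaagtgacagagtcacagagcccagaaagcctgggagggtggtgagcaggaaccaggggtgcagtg
Igll1: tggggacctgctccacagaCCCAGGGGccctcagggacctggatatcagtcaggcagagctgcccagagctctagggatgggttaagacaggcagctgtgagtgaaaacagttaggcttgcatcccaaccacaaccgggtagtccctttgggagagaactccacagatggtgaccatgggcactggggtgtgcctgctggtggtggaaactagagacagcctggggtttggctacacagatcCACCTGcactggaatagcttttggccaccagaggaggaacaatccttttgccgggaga
Dntt: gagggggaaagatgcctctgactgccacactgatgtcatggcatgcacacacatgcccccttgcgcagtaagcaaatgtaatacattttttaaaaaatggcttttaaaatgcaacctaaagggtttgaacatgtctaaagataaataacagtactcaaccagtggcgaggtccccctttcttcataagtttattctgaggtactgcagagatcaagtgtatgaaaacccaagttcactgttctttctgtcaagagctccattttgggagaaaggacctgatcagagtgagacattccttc
The E-box starts 88 bases before the Vpreb1 start and 8 bases before the Igll1 start, and the CCCNNGGG of Igll1 lies 231 bases before its start. Neither run of letters stands in the Dntt window. The table held 10 promoters for 9 of the genes, all but Cd79b, with 2 for Ebf1. CAGGTG was in the window of 4 of the 9 genes (Rag1, Cd79a, Igll1 and Vpreb1), against 20.2% of 32851 mouse promoters. CCCNNGGG was in that of 1 of 9, against 13.7% of promoters. Of the other motifs searched on both strands, none of which contains another, TGGGAA (Ikaros) was in 2 of 9, GAGGAA (PU.1) in 5 of 9, ATTTGCAT (octamer) in 1 of 9 and TGTTTAC (FOXO) in 0 of 9. Their shares of all promoters were 25.6%, 28.3%, 1.74% and 3.65%. These matches describe letters and not bound sites.

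Rag1 was high at 2 separate stages, pro-B-like and small pre-B-like, and low in the dividing cells between them. In the growth plate it stood at 538 CPM (504 to 573) with 1NMPP1 and 431 CPM (392 to 473) with vehicle in pro-B-like cells. It was 33.8 and 52.9 CPM with 1NMPP1 and vehicle in cycling pro-B-like cells, and 88.3 and 96.5 CPM in cycling pre-B-like cells. Small pre-B-like cells held 582 CPM (558 to 605) with 1NMPP1 and 532 CPM (506 to 558) with vehicle, so that the second peak was about as high as the first. Immature B-like cells held 63.6 CPM (51.8 to 77.4) with 1NMPP1 and 33.4 CPM (24.1 to 44.9) with vehicle. In mature B-like cells there were 25 UMIs in 131 cells with 1NMPP1, 28.0 CPM, and 1 UMI in 135 cells with vehicle, 1.18 CPM. Small pre-B-like cells of the DRG had nearly the same level, 507 CPM (443 to 576) with 1NMPP1 and 462 CPM (414 to 513) with vehicle. Neutrophil-like cells, which do not make the RAG proteins, had 1.53, 1.01, 0 and 0.55 CPM of Rag1 in the 1NMPP1 and vehicle growth plate and the 1NMPP1 and vehicle DRG, and serve as the background.

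Rag2, the partner without which RAG1 does not cut, did not follow Rag1 closely. It was highest in pro-B-like cells, with 111 CPM (96.4 to 128) with 1NMPP1 and 126 CPM (106 to 150) with vehicle in the growth plate and 117 CPM (73.2 to 177) in the vehicle DRG. In small pre-B-like cells it stood at 39.4 CPM with 1NMPP1 and 36.4 CPM with vehicle, and at 41.8 and 41.4 CPM in the 1NMPP1 and vehicle DRG. Pro-B-like over small pre-B-like cells, Rag2 was thus 2.82-fold higher with 1NMPP1 and 3.46-fold higher with vehicle, whereas Rag1 stood at 0.925 and 0.811 of its small pre-B level. Cycling pre-B-like cells had about the same CPM of Rag2 as small pre-B-like cells, 35.4 and 33.5 CPM with 1NMPP1 and vehicle, at log2 ratios of -0.16 (-0.43 to 0.12) and -0.12 (-0.46 to 0.22). In the same comparison Rag1 was lower at -2.72 (-2.83 to -2.61) and -2.46 (-2.60 to -2.33). Neutrophil-like cells of the growth plate had 0.47 CPM of Rag2 with 1NMPP1 and 0.25 CPM with vehicle.

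**Figure D1:**
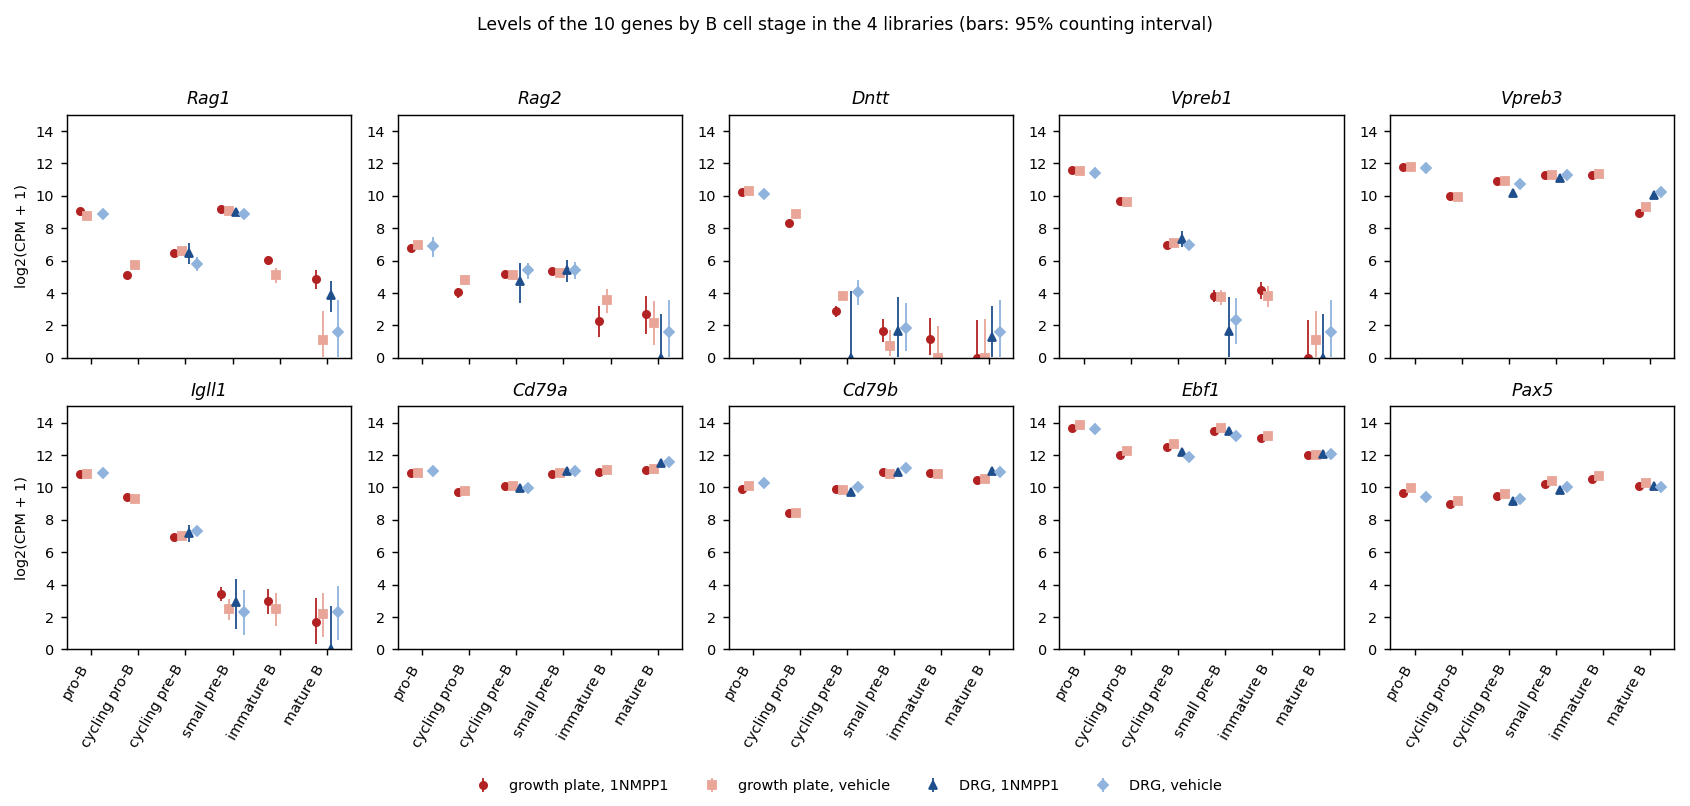
Level of each of the 10 genes, as log2(CPM + 1), by B cell stage (all stages are marker-named, -like clusters) in the 4 libraries; points are library levels, bars are 95% counting intervals, and stages with fewer than 20 cells are left out. Rag1 peaks at 538 and 431 CPM in pro-B-like and at 582 and 532 CPM in small pre-B-like cells of the 1NMPP1 and vehicle growth plate, while Dntt, Vpreb1 and Igll1 step down in CPM from the pro-B-like stage on.

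Dntt was largely a gene of the pro-B stages. It had 1230 CPM (1180 to 1283) with 1NMPP1 and 1257 CPM (1190 to 1328) with vehicle in pro-B-like cells of the growth plate, and 1131 CPM (984 to 1294) in the vehicle DRG. Cycling pro-B-like cells held 320 CPM with 1NMPP1 and 478 CPM with vehicle, and cycling pre-B-like cells 6.34 and 13.4 CPM. In small pre-B-like cells only 9 UMIs were counted in 770 cells with 1NMPP1 and 2 UMIs in 679 cells with vehicle, 2.20 and 0.651 CPM. These levels are near those of neutrophil-like cells, 1.56 CPM with 1NMPP1 and 0.98 CPM with vehicle. The log2 ratio of pro-B-like over small pre-B-like cells was 9.05 (8.20 to 10.26) with 1NMPP1 and 10.59 (9.06 to 13.96) with vehicle. Mature B-like cells had 0 UMIs in both growth plate libraries, which allows up to 3.36 CPM with 1NMPP1 and 3.53 CPM with vehicle.

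The surrogate light chain genes Vpreb1 and Igll1 were on in pro-B-like cells, stepped down in CPM through both dividing stages and were nearly off in small pre-B-like cells. UMIs per cell did not fall at the first of these steps. Cycling pro-B-like cells were 6.32% of the growth plate B lineage with 1NMPP1 and 5.32% with vehicle. They held 38.3% and 37.0% of its Vpreb1 UMIs and 43.4% and 40.5% of its Igll1 UMIs. Pro-B-like cells were 9.31% and 7.80%, and held 49.9% and 49.1% of the Vpreb1 UMIs and 41.1% and 41.6% of the Igll1 UMIs. Vpreb1 stood at 3093 and 3013 CPM with 1NMPP1 and vehicle in pro-B-like cells of the growth plate, at 834 and 800 CPM in cycling pro-B-like cells, and at 126 and 133 CPM in cycling pre-B-like cells. In small pre-B-like cells it had 53 UMIs (9.71 to 16.9 CPM) with 1NMPP1 and 38 UMIs (8.75 to 17.0 CPM) with vehicle, against 3.40 and 1.65 CPM in neutrophil-like cells. Igll1 took the same course, with 1810 and 1829 CPM with 1NMPP1 and vehicle in pro-B-like cells, 672 and 627 CPM in cycling pro-B-like cells, and 120 and 128 CPM in cycling pre-B-like cells. In small pre-B-like cells it had 9.78 CPM (6.99 to 13.3) with 1NMPP1 and 4.56 CPM (2.49 to 7.64) with vehicle. Neutrophil-like cells had 2.31 CPM (1.88 to 2.82) and 0.887 CPM (0.590 to 1.28) of Igll1. The DRG showed the same order of stages, with 2692 CPM of Vpreb1 and 1875 CPM of Igll1 in pro-B-like cells of the vehicle library. Small pre-B-like cells of the DRG held 1 UMI of Vpreb1 with 1NMPP1 and 3 UMIs with vehicle, and 3 UMIs of Igll1 in each.

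Vpreb3, whose protein binds new immunoglobulin chains inside the cell and is not part of the surrogate light chain, behaved unlike its namesake. It was still high in small pre-B-like and immature B-like cells, with a lower CPM in the dividing stages between. It stood at 3495 and 3523 CPM with 1NMPP1 and vehicle in pro-B-like cells of the growth plate, 1017 and 979.8 CPM in cycling pro-B-like cells, 1894 and 1896 CPM in cycling pre-B-like cells, 2501 and 2450 CPM in small pre-B-like cells, and 2546 and 2581 CPM in immature B-like cells. In mature B-like cells it was at 481 CPM with 1NMPP1 and 624 CPM with vehicle in the growth plate, and at 1043 and 1220 CPM in the DRG. Relative to small pre-B-like cells the mature level was at a log2 ratio of -2.38 (-2.52 to -2.24) with 1NMPP1 and -1.97 (-2.10 to -1.85) with vehicle in the growth plate.

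The receptor signalling chains Cd79a and Cd79b were present at every stage. Of the 6 stages up to mature B-like cells, both had their lowest CPM in cycling pro-B-like cells. There Cd79a stood at 834 and 861 CPM and Cd79b at 336 and 345 CPM with 1NMPP1 and vehicle in the growth plate. This is a low share of RNA and not the lowest count per cell. These cells were 6.32% and 5.32% of the growth plate B lineage. They held 13.8% and 11.7% of its Cd79a UMIs and 6.90% and 5.92% of its Cd79b UMIs. Cd79a was at 1862 and 1891 CPM with 1NMPP1 and vehicle in pro-B-like cells of the growth plate, 1852 and 1877 CPM in small pre-B-like cells, and 2190 and 2250 CPM in mature B-like cells. Cd79b was the later of the pair, with 950 and 1070 CPM in pro-B-like cells, 1957 and 1836 CPM in small pre-B-like cells and 1384 and 1488 CPM in mature B-like cells. Its log2 ratio of pro-B-like over small pre-B-like cells was -1.04 (-1.12 to -0.97) with 1NMPP1 and -0.78 (-0.87 to -0.69) with vehicle, while that of Cd79a was 0.01 in both. Small pre-B-like cells of the DRG held 2035 and 2072 CPM of Cd79a and 2022 and 2325 CPM of Cd79b with 1NMPP1 and vehicle. Plasma cell-like cells still had 519 and 290 CPM of Cd79a and 324 and 317 CPM of Cd79b with 1NMPP1 and vehicle in the growth plate, from 8 and 7 cells.

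Of the same 6 stages, Ebf1 had its highest CPM in pro-B-like and small pre-B-like cells and its lowest CPM in cycling pro-B-like and mature B-like cells. It had 13074 CPM with 1NMPP1 and 14504 CPM with vehicle in pro-B-like cells of the growth plate, 11506 and 13291 CPM in small pre-B-like cells, 8322 and 9062 CPM in immature B-like cells, and 4157 and 4134 CPM in mature B-like cells. Mature B-like cells of the DRG were at the same level, 4222 CPM with 1NMPP1 and 4367 CPM with vehicle. Ebf1 in cycling pro-B-like cells was at 4126 and 4958 CPM with 1NMPP1 and vehicle, and in cycling pre-B-like cells at 5692 and 6707 CPM. Pax5 ran from 509 CPM in cycling pro-B-like to 1457 CPM in immature B-like cells with 1NMPP1, and from 578 to 1661 CPM in the same stages with vehicle. Mature B-like cells kept 1108 and 1258 CPM of Pax5, at log2 ratios to small pre-B-like cells of -0.08 (-0.18 to 0.02) and -0.12 (-0.22 to -0.03) with 1NMPP1 and vehicle.

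The same steps can be counted against all genes, where a gene counts when it passed 1.5-fold in both growth plate libraries. Pro-B-like over small pre-B-like cells, 4 of the 10 genes were higher (Rag2, Dntt, Vpreb1 and Igll1), against 17.3% of the 9493 genes measured. In that comparison 1 was lower (Cd79b), against 10.2% of genes. Cycling pre-B-like over small pre-B-like cells, 3 of 10 were higher (Dntt, Vpreb1 and Igll1), against 19.8% of genes, and 5 were lower (Rag1, Cd79a, Cd79b, Ebf1 and Pax5), against 17.4%. Mature B-like over small pre-B-like cells, 0 of the 8 genes with enough UMIs were higher, against 15.2% of genes, and 5 were lower (Rag1, Rag2, Vpreb1, Vpreb3 and Ebf1), against 11.3%. With stages taken cell by cell from UMIs of a few stage markers in place of clusters, 3 genes were higher and 2 lower in this last comparison. Dntt, Vpreb1 and Igll1 then turned to log2 ratios of 5.02, 4.68 and 5.21 with 1NMPP1. The median depth of the stages differed too, from 29670.5 UMIs per cell in cycling pro-B-like to 5413.5 in small pre-B-like cells with 1NMPP1, and from 23621 to 4504 with vehicle. CPM sets a gene against all RNA of its cell, so a low CPM in large dividing cells is a smaller share and not always fewer molecules. The part of cell size in the cycling levels was not tested. In cycling pro-B-like over pro-B-like cells, all 10 genes had a lower CPM, with Rag1 at -3.99 (-4.23 to -3.76) with 1NMPP1 and -3.02 (-3.30 to -2.76) with vehicle.

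Within a stage Rag1 differed widely among the clusters. Of the 4 large cycling pre-B-like clusters, one with Ccnb2 and Cdc20 among its leading genes held 348 CPM of Rag1 (314 to 386) in 164 cells with 1NMPP1 and 333 CPM (294 to 376) in 146 cells with vehicle. Its marker score was 0.53 for cycling and 0.35 for small pre-B cells, at a median of 5999 UMIs per cell, so its name is less certain. The other 3 held 34.7 to 77.6 CPM with 1NMPP1 and 31.0 to 97.2 CPM with vehicle. Among them was the cluster led by Top2a, Ube2c and Cenpf, whose cycling score was 1.6. The cluster with Ccnb2 and Cdc20 had the least Vpreb1 of the 4, 23.5 and 20.7 CPM, against 101 to 273 CPM with 1NMPP1 and 56.1 to 274 CPM with vehicle in the rest. Among small pre-B-like clusters, the one led by Iglc1, Reln and Ms4a1 had the highest Rag1, 786 CPM (733 to 841) with 1NMPP1 and 632 CPM (581 to 686) with vehicle. Its marker score was 0.52 for small pre-B and 0.49 for immature B cells, so its stage name is uncertain. Its Rag2 was at 28.8 and 32.3 CPM with 1NMPP1 and vehicle, and the remaining large small pre-B-like clusters were at 39.4 to 48.2 and 38.8 to 40.9 CPM. The genes were left out of the clustering, but clusters are not replicates, and this is a description of 1 grouping of the cells.

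**Figure D2:**
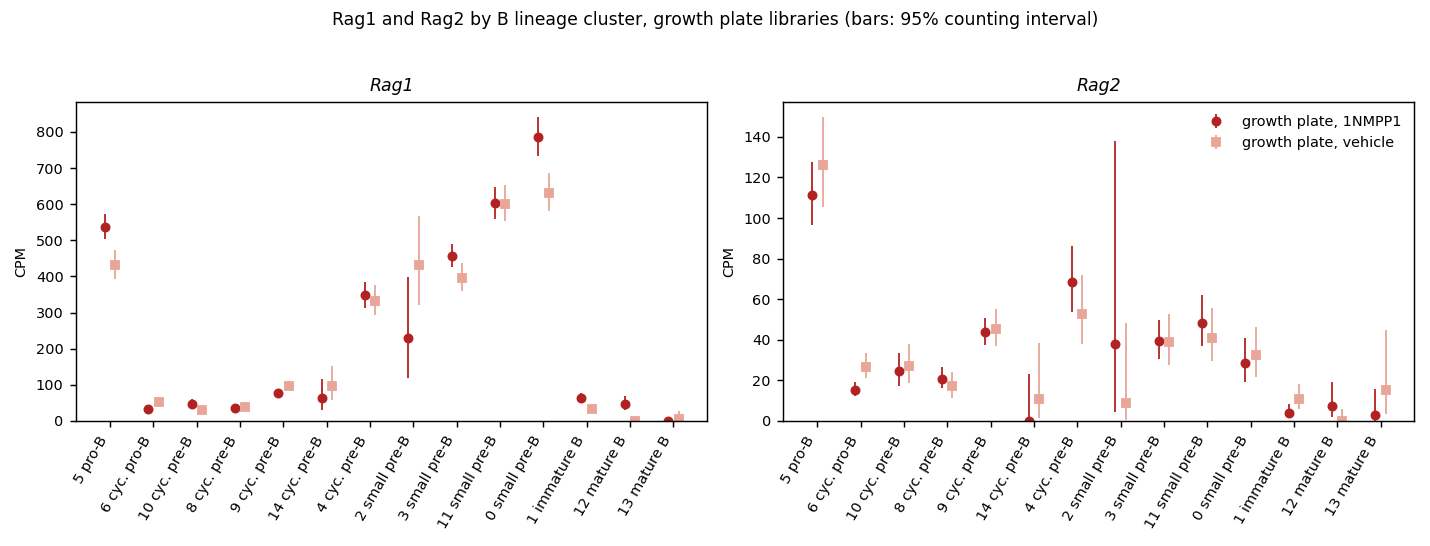
CPM of Rag1 and Rag2 in each B lineage cluster of the growth plate libraries, grouped by the stage named from markers (cyc. is cycling); points are libraries and bars 95% counting intervals. Rag1 is at 348 and 333 CPM in the cycling pre-B-like cluster 4 and at most 97.2 CPM in the other large cycling pre-B-like clusters (14 is a small one), and cluster 0 of the small pre-B-like cells is highest at 786 and 632 CPM with 1NMPP1 and vehicle.

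Single pro-B-like cells usually carried several of the genes at once. Of 212 pro-B-like cells with 1NMPP1 and 148 with vehicle, 96.2% and 93.9% had a UMI of both Vpreb1 and Igll1, 87.3% and 85.8% of both Dntt and Igll1, and 49.1% and 48.0% of both Rag1 and Rag2. Of the cells with a UMI of Rag2, 94.5% and 94.7% had one of Rag1 too. Depth sets these shares, so each cell was thinned to 2000 UMIs, which left 202 and 140 pro-B-like cells and left out 10 and 8 shallower ones. Rag1 with Rag2 was then found in 17.8% (12.8 to 23.8) with 1NMPP1 and 12.9% (7.80 to 19.6) with vehicle, and Vpreb1 with Igll1 in 91.6% and 92.1%. Of the thinned cells with a UMI of Rag2, 72% with 1NMPP1 and 62.1% with vehicle had one of Rag1, against 59.9% and 58.6% of all thinned pro-B-like cells. At 1000 UMIs per cell the order of the treatments turned, with Rag1 and Rag2 together in 4.83% with 1NMPP1 and 8.28% with vehicle. In thinned small pre-B-like cells Rag1 was found in 61.7% and 60.7% of growth plate cells and in 50% and 50.4% of DRG cells, with 1NMPP1 and vehicle. Igll1 was found there in 1.62% and 0.642% of growth plate cells. The pair Rag1 and Igll1, which marks a cell with both the cutting enzyme and the surrogate light chain, was found in 55.4% and 55.7% of thinned pro-B-like cells with 1NMPP1 and vehicle. In thinned cycling pre-B-like cells it was found in 0.708% (0.230 to 1.64) and 0.560% (0.116 to 1.63), although Rag1 alone was in 22.8% and 20.1% of them and Igll1 in 10.6% and 10.8%. As background, thinned neutrophil-like cells had Rag1 in 0.546% and 0.282% and Igll1 in 0.741% and 0.179% with 1NMPP1 and vehicle, and none of the pairs Rag1 with Rag2, Vpreb1 with Igll1 or Rag1 with Igll1 in any of 5131 and 3905 cells. Unthinned, neutrophil-like cells had Rag1 in 1.16% and 0.733%, at a median of 5692 and 5387 UMIs per cell, against 8017.5 and 6900.5 UMIs in pro-B-like cells. After thinning, the shares of Igll1 in small pre-B-like cells had intervals of 0.838 to 2.81% with 1NMPP1 and 0.175 to 1.64% with vehicle. Those of the thinned neutrophil-like cells, 0.525 to 1.02% and 0.0721 to 0.369%, overlap them. In all, 6 pairs of genes were computed.

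The first comparison the design implies asks whether the 10 genes differed in growth plate B cells of mice given the kinase blocker 1NMPP1. Whether the receptor was blocked was not measured in these data. Over all B lineage cells, 0 of the 10 genes passed 1.5-fold between 1NMPP1 and vehicle, against 8.77% of 13784 genes, and their median log2 ratio was -0.05, against -0.01 for all genes. Rag1 was at 192 CPM with 1NMPP1 and 185 CPM with vehicle (log2 ratio 0.05), and Rag2 at 34.0 and 35.2 CPM (-0.05). Vpreb1 was slightly higher, 475 CPM with 1NMPP1 and 410 CPM with vehicle (0.21, 0.17 to 0.26), as was Igll1, 337 and 293 CPM (0.20, 0.15 to 0.25). Pro-B-like and cycling pro-B-like cells together were 15.6% of the B lineage with 1NMPP1 and 13.1% with vehicle, and without them the ratios of Vpreb1 and Igll1 were 0.05 and 0.06. That of Dntt, -0.11 over all B lineage cells, was then -0.74 (-1.21 to -0.27) on 73 UMIs with 1NMPP1 and 85 UMIs with vehicle, past 1.5-fold. The part of the stage mixture in these ratios was not tested. Both transcription factors were slightly lower, Ebf1 with 6996 CPM with 1NMPP1 and 8190 CPM with vehicle (-0.23, -0.24 to -0.22) and Pax5 with 817 and 965 CPM (-0.24, -0.27 to -0.21). Vpreb3 was at 1905 CPM with 1NMPP1 and 1911 CPM with vehicle, Cd79a at 1320 and 1397, Cd79b at 1064 and 1104, and Dntt at 167 and 180.

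Taken stage by stage, most of the 10 genes were within 1.5-fold between the treatments in the growth plate, as were most of all genes. In pro-B-like cells 0 of 10 genes passed 1.5-fold (14.1% of all genes). In cycling pro-B-like cells 2 of 10 did (10.3% of all genes), Rag1 at -0.65 and Rag2 at -0.80. In cycling pre-B-like cells Dntt alone did, 1 of 10 (8.72% of all genes), at -1.07 (-1.58 to -0.59) from 62 UMIs in 35 cells with 1NMPP1 and 83 UMIs in 23 cells with vehicle, of which 1 cell held 18. In small pre-B-like cells Igll1 did, 1 of 9 (9.96% of all genes), at 1.07 (0.19 to 2.09) from 40 UMIs in 23 cells with 1NMPP1 and 14 UMIs in 11 cells with vehicle. The background of Igll1 in neutrophil-like cells differed the same way, 2.31 CPM with 1NMPP1 and 0.887 CPM with vehicle. Its part in the ratio was not tested. In immature B-like cells 2 of 8 passed 1.5-fold (12.3% of all genes), Rag1 at 0.92 (0.40 to 1.48) and Rag2 at -1.44 (-3.18 to -0.04), so the 2 RAG genes went opposite ways on 100 and 43 UMIs and on 6 and 14 UMIs. In mature B-like cells Rag1 did, 1 of 6 (18.3% of all genes), at 4.02 (1.96 to 9.93), on 25 UMIs in 7 cells with 1NMPP1 and 1 UMI with vehicle. Ebf1 was at -0.24 in cycling pre-B-like, -0.21 in small pre-B-like, -0.12 in immature B-like and 0.01 in mature B-like cells, and Pax5 at -0.12, -0.23, -0.19 and -0.18 in the same stages.

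**Figure D3:**
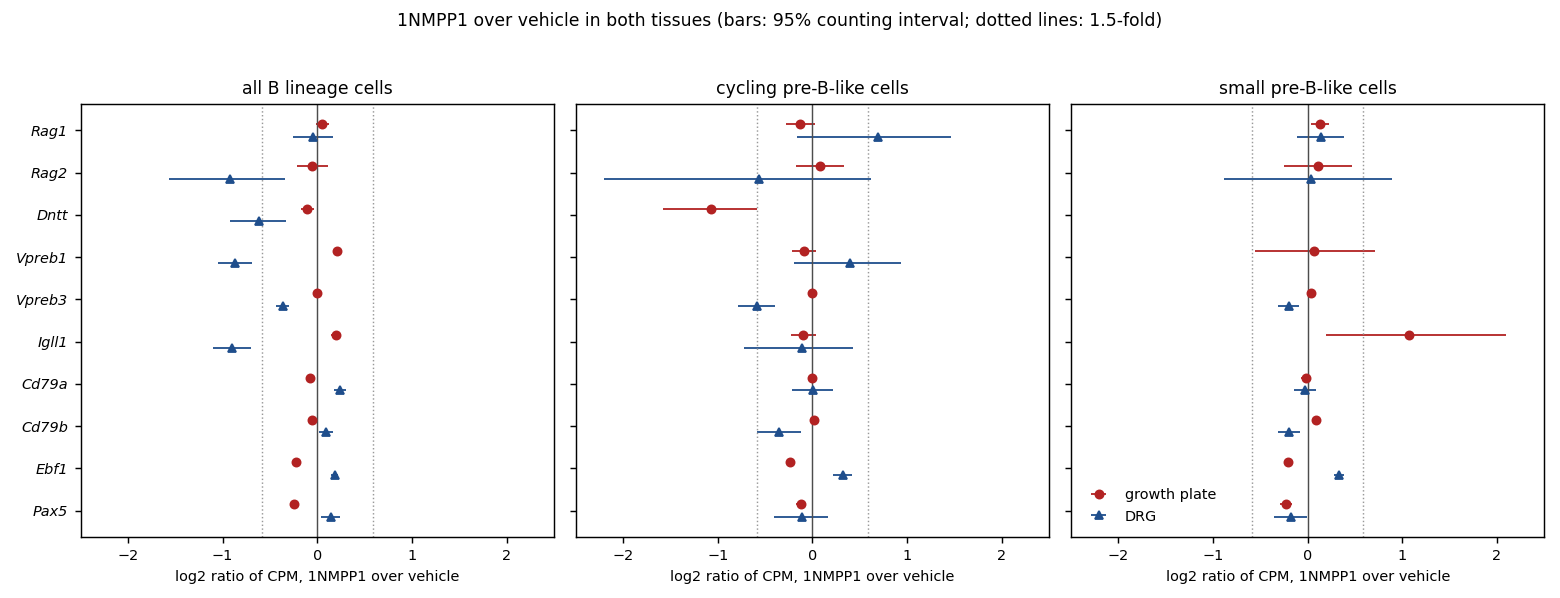
Log2 ratio of CPM, 1NMPP1 over vehicle, of the 10 genes in all B lineage cells, cycling pre-B-like cells and small pre-B-like cells of the growth plate and the DRG; points are ratios of 1 library to 1 library, bars 95% counting intervals, and dotted lines mark 1.5-fold. In all B lineage cells of the DRG, Rag2, Dntt, Vpreb1 and Igll1 lie between -0.92 and -0.61. In those of the growth plate all 10 genes lie between -0.24 and 0.21.

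In the DRG the same comparison gave lower levels of Rag2, Dntt, Vpreb1 and Igll1 over the B lineage as a whole. Of the 10 genes, 4 were at least 1.5-fold lower with 1NMPP1, against 8.18% of 10243 genes, and 0 were higher, where 27.2% of genes passed 1.5-fold in either direction. Rag2 was at 18.6 CPM with 1NMPP1 and 35.5 CPM with vehicle (log2 ratio -0.92, -1.56 to -0.34), and Dntt at 79.1 and 121 CPM (-0.61). Vpreb1 was at 192 CPM with 1NMPP1 and 351 CPM with vehicle (-0.87, -1.05 to -0.68), from 22 and 60 cells with a UMI. Igll1 was at 167 CPM with 1NMPP1 and 311 CPM with vehicle (-0.90, -1.10 to -0.70), from 23 and 58 cells. The sexes were unequal between these libraries. In male-called cells alone (47 with 1NMPP1 and 168 with vehicle) the ratios of Rag2, Dntt, Vpreb1 and Igll1 were -0.26, 0.13, -0.23 and -0.59, so that Dntt turned direction and only Igll1 of the 4 was past 1.5-fold. In female-called cells alone (199 and 87) they were -0.97, -1.08, -0.61 and -0.63. Rag1 was at 173 and 178 CPM (-0.04), Vpreb3 at 1393 and 1797 CPM (-0.37), and Cd79a at 2030 and 1713 CPM (0.24) with 1NMPP1 and vehicle. Ebf1 stood at 6564 CPM with 1NMPP1 and 5780 CPM with vehicle (0.18), Pax5 at 848 and 769 CPM (0.14) and Cd79b at 1560 and 1461 CPM (0.09).

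The mixture of stages also differed between the DRG libraries, and its part in those ratios was not tested. Mature B-like cells were 48.0% (42.1 to 53.8) of the DRG B lineage with 1NMPP1 and 25.2% (20.4 to 30.6) with vehicle. Pro-B-like and cycling pro-B-like cells together were 5.44% with 1NMPP1 and 12.0% with vehicle, and cycling pre-B-like cells 6.80% and 17.3%. Within small pre-B-like cells of the DRG, 0 of 7 genes passed 1.5-fold (25.4% of all genes), with Rag1 at 0.14 (-0.11 to 0.38), Rag2 at 0.03, Ebf1 at 0.33, Pax5 at -0.18 and Vpreb3 and Cd79b at -0.20. Within mature B-like cells it was 0 of 5 (25.8% of all genes). Within cycling pre-B-like cells, on 20 cells with 1NMPP1 and 52 with vehicle, 2 of 9 did (31.3% of all genes), Rag1 at 0.70 (-0.16 to 1.47) and Vpreb3 at -0.59. Without pro-B-like and cycling pro-B-like cells the ratios over the rest were -0.77 for Rag2, -0.85 for Vpreb1 and -1.29 for Igll1, and Dntt had 2 UMIs with 1NMPP1 and 16 with vehicle. RNA of other cells moved with treatment as well: the sum of 4 hemoglobin transcripts in small pre-B-like cells was 23520 CPM with 1NMPP1 and 1027 CPM with vehicle in the DRG, and 259 and 4101 CPM in the growth plate. The sum of 5 glial markers in these cells was 236 CPM with 1NMPP1 and 536 CPM with vehicle in the DRG. Their part in the ratios was not tested.

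**Figure D4:**
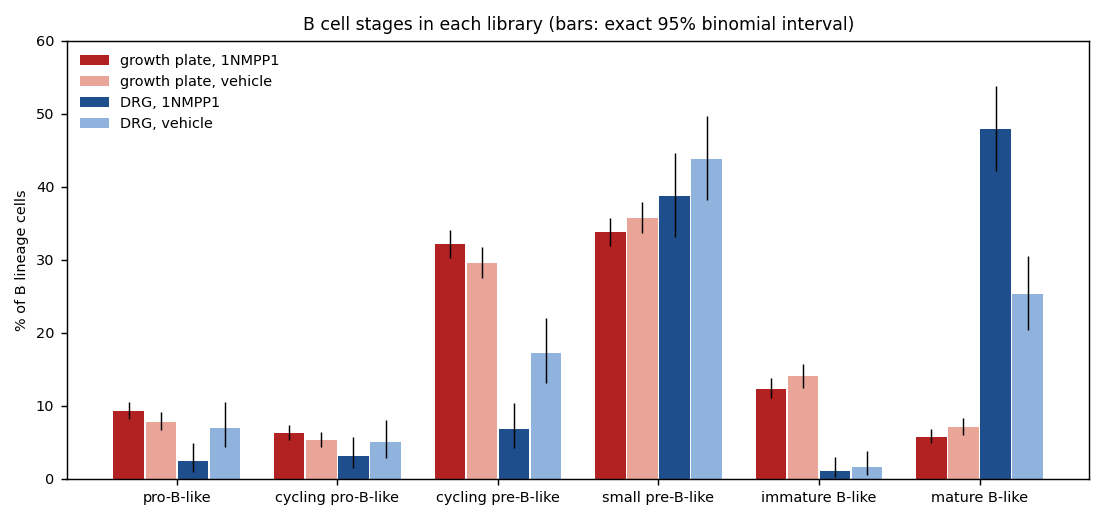
Share of B lineage cells at each marker-named stage in each library, in %, with exact 95% binomial intervals; bars are libraries. Mature B-like cells make up 48.0% and 25.2% of the 1NMPP1 and vehicle DRG B lineage, and 5.75% and 7.11% in the growth plate.

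Set side by side within a stage, most of the 10 genes were within 1.5-fold between the growth plate and the DRG, as were most of all genes. Tissue, digestion and library differ together. In pro-B-like cells with vehicle 0 of 10 genes passed, against 34.8% of all genes. In cycling pre-B-like cells 2 of 10 passed in each treatment, against 42.1% of all genes with 1NMPP1 and 27.5% with vehicle. With 1NMPP1 they were Vpreb3 at 0.74 (0.56 to 0.92) and Dntt, with 62 UMIs in 732 growth plate cells and 0 UMIs in 20 DRG cells, which allows up to 13.1 CPM and so more than the 6.34 CPM of the growth plate. With vehicle they were Rag1 at 0.80 (0.38 to 1.29) and Ebf1 at 0.83 (0.78 to 0.88). In small pre-B-like cells of the 1NMPP1 libraries, 1 of 9 genes passed 1.5-fold between growth plate and DRG, against 35.8% of all genes, and with vehicle 1 of 8, against 29.6%. In both cases this was Vpreb1, with 53 UMIs in the growth plate and 1 in the DRG with 1NMPP1 (log2 ratio 1.99, 0.02 to 7.89) and 38 and 3 UMIs with vehicle (1.42, -0.03 to 3.97). In mature B-like cells Vpreb3 was lower in the growth plate than in the DRG, at -1.12 with 1NMPP1 and -0.97 with vehicle. With Rag1 at 1.01 (-0.09 to 2.35) this made 2 of 6 genes with 1NMPP1, against 30.6% of all genes, and 1 of 5 with vehicle, against 30.8%. The 6 neutrophil markers summed to 5268 and 5198 CPM in growth plate B lineage cells with 1NMPP1 and vehicle and to 245 and 332 CPM in those of the DRG, a difference between the tissues whose part in these ratios was not tested.

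Most UMIs of the genes lay in the B lineage, with exceptions for Dntt and Ebf1. Of all Rag1 UMIs in kept cells, 97.1% were in B lineage cells in both growth plate libraries, and 99.3% and 98.6% in the 1NMPP1 and vehicle DRG. For Dntt the share was 81.8% with 1NMPP1 and 78.9% with vehicle in the growth plate. There plasmacytoid dendritic cell-like cells held 236 CPM of Dntt (219 to 255) in 163 cells with 1NMPP1 and 332 CPM (305 to 362) in 120 cells with vehicle, and stem and progenitor-like cells 45.5 and 105 CPM in 59 and 50 cells. Most of the Dntt of the first class came from 1 cluster of 46 cells with 1NMPP1 and 28 with vehicle, led by Ly6d, Dntt, Cox6a2 and Flt3, where 73.0% of cells had a UMI and the level was 640 CPM (600 to 681). The marker score of that cluster was 4.41 for plasmacytoid dendritic cells and 4.39 for stem and progenitor cells, so its name is uncertain. For Ebf1 the share was 98.1% and 98.3% in the growth plate, but 49.2% with 1NMPP1 and 45.9% with vehicle in the DRG. Outside the B lineage of the DRG, endothelial-like cells had 1270 CPM of Ebf1 with 1NMPP1 and 1090 CPM with vehicle, fibroblast or stroma-like cells 871 and 1030 CPM, and sensory neuron-like cells 717 and 731 CPM. Pericyte or smooth muscle-like cells of the vehicle DRG had 1700 CPM of Ebf1 in 45 cells. EBF1 is known outside the B lineage too, in stromal and fat cells and in olfactory neurons. In these DRG classes Rag1 had at most 1 UMI per class and library. The remaining 7 genes had 92.1% to 99.6% of their UMIs in the B lineage in every library.

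**Figure D5:**
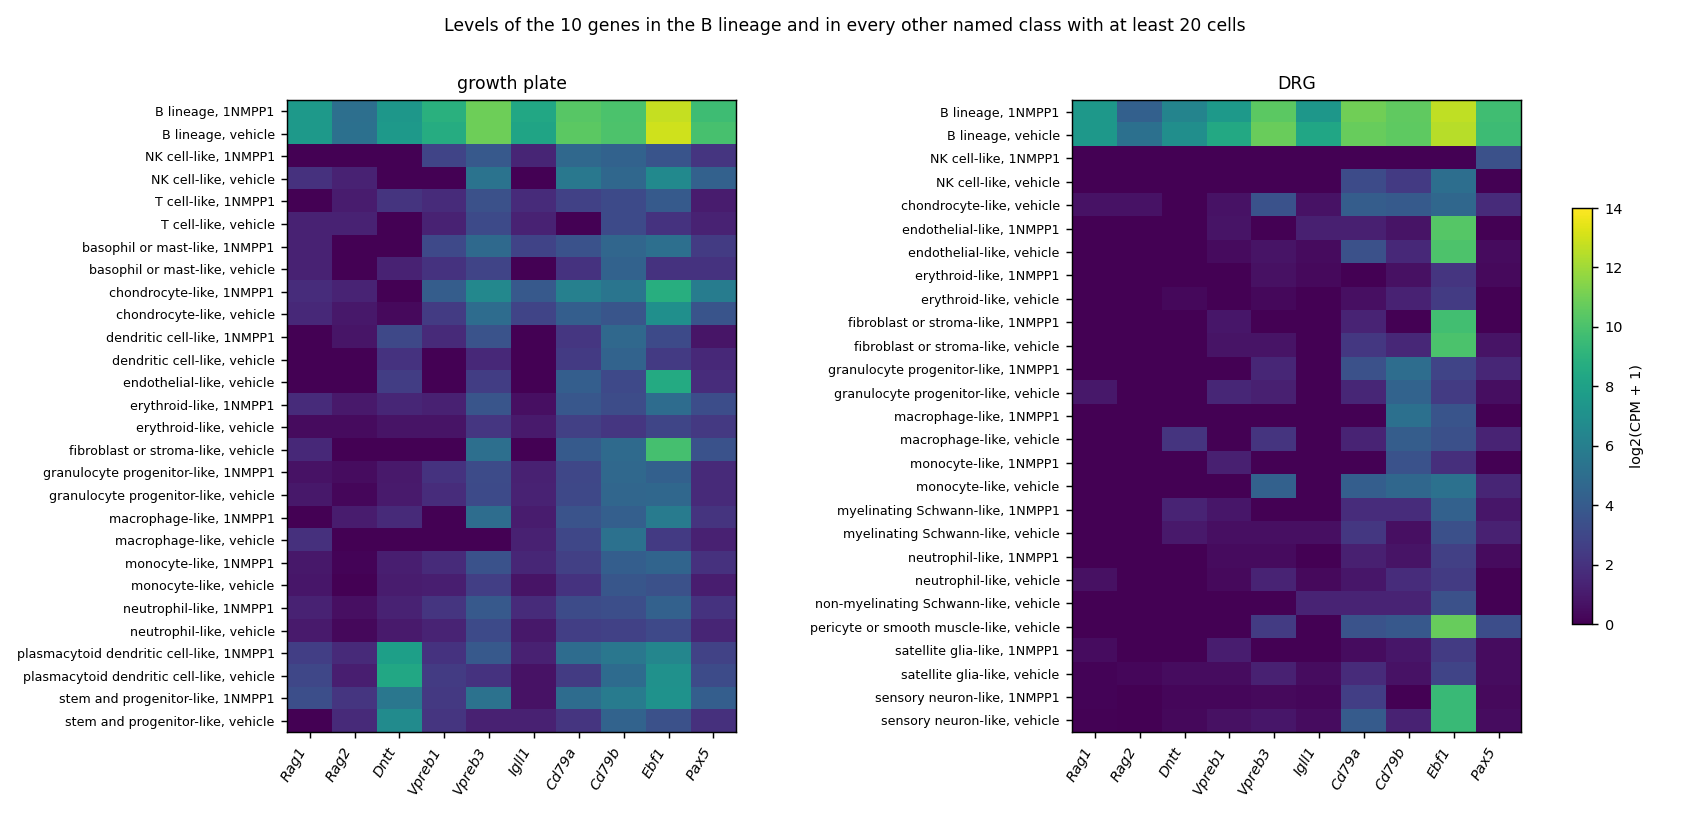
Level of the 10 genes, as log2(CPM + 1) on a colour scale, in the B lineage and in every other marker-named class with at least 20 cells, by tissue and treatment. Dntt stands out in plasmacytoid dendritic cell-like cells of the growth plate (236 and 332 CPM with 1NMPP1 and vehicle), and Ebf1 in endothelial-, fibroblast-, pericyte- and sensory neuron-like cells of the DRG.

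Over the 19 profiles, each a stage with at least 20 cells in 1 of the 4 libraries, Vpreb1 and Igll1 were the pair of genes most alike, with a Pearson r of 0.993 of log2(CPM + 10). Dntt with Vpreb1 gave 0.925, and Rag1 with Rag2 0.842. Rag1 with Ebf1 was as close as that, at 0.860, and Igll1 with Cd79b was farthest, at -0.722. Profiles of a library share its depth and its free RNA, so these values describe and carry no test. Among genes outside the set, those most like Rag1 were Selenop (0.939), Sertad4 (0.935) and Tapt1 (0.932), and those most like Rag2 were Tfdp2 (0.970), Plcg1 (0.933) and Apip (0.932). The 2 lists share no gene. Dntt was most like Vpreb2 (0.990), Arpp21 (0.990) and Atp2b4 (0.986). Vpreb1 and Igll1 both had Tiam1 (0.982 and 0.988) and Sash1 (0.976 and 0.980) at the top, followed by Lef1 (0.972) for Vpreb1 and Acp6 (0.978) for Igll1. Lef1 is a marker that named the pro-B stage, so its likeness follows in part from the naming. Arpp21 is a marker that named the small pre-B stage, yet it was also among the leading genes of the pro-B-like cluster. Vpreb3 was most like Cxxc5 (0.928), H13 (0.891) and Marcks (0.890). Cd79a came nearest to Mcl1 (0.972), Cd37 (0.967) and Trim12a (0.958), Cd79b to Btg1 (0.957), Smim14 (0.952) and Cytip (0.952), Ebf1 to Dpp4 (0.970), Kansl1l (0.965) and Usp3 (0.951), and Pax5 to Med13 (0.957), Fam172a (0.954) and Iqsec1 (0.952).

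Other genes of the pathway were taken from 4 lists. The V(D)J end joining list holds 14 genes, most of which repair the RAG cuts. In the growth plate 4 of the 14 were highest in pro-B-like, 1 in cycling pro-B-like and 3 in cycling pre-B-like cells. A further 2 each were highest in small pre-B-like, immature B-like and mature B-like cells. Hmgb2, a DNA-bending protein that helps RAG bind, stood at 5950 and 5190 CPM with 1NMPP1 and vehicle in cycling pre-B-like cells and at 239 and 227 CPM in immature B-like cells. Polm, a polymerase that fills the joints, was highest in small pre-B-like cells, at 158 and 172 CPM, and had 6.64 and 6.44 CPM in cycling pro-B-like cells. In the list of 15 pre-BCR and BCR signalling genes, 5 were highest in immature B-like and 5 in mature B-like cells. Vpreb2, the near copy of Vpreb1, was at 431 and 387 CPM with 1NMPP1 and vehicle in pro-B-like cells, and Cd22, an inhibitor of the B cell receptor, at 142 and 155 CPM in mature B-like and 10.0 and 15.4 CPM in pro-B-like cells. Of 19 B lineage transcription factors 7 were highest in small pre-B-like cells. Erg and Lef1 were instead pro-B genes, at 1042 and 1180 CPM and at 2552 and 2672 CPM with 1NMPP1 and vehicle. Of the 13 genes of the IL7 receptor axis, which drives the growth of B cell progenitors, 6 were highest in mature B-like cells. Among them Bcl2, which blocks cell death, had 221 and 242 CPM in mature B-like and 2.20 and 1.63 CPM in small pre-B-like cells, and Socs2, a feedback inhibitor of cytokine signals, was at 65.6 and 88.6 CPM in pro-B-like cells. Stage markers include Erg, Lef1, Cd22 and Il7r, so the stage levels of these follow in part from the naming.

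Between 1NMPP1 and vehicle over the growth plate B lineage, 0 of 14, 0 of 15, 0 of 19 and 0 of 13 genes of the 4 lists passed 1.5-fold, against the 8.77% of all genes given above. Their median log2 ratios were -0.08, -0.13, -0.11 and -0.02. The highest and lowest were Hmgb1 at 0.26 and Prkdc at -0.36, Bcl6 at 0.23 and Pik3ap1 at -0.31, Irf4 at 0.06 and Pou2f2 at -0.38, and Jak3 at 0.28 and Bcl2 at -0.35. In the DRG B lineage 4 were higher and 3 lower of 14, 5 and 1 of 15, 5 and 1 of 19, and 4 and 1 of the 12 with enough UMIs, against the 27.2% above. The highest and lowest of each list there were Polm at 0.97 and Hmgb2 at -1.002, Cd22 at 1.65 and Vpreb2 at -0.92, Spib at 1.21 and Erg at -0.65, and Bcl2 at 2.13 and Socs2 at -0.59. In the growth plate Vpreb2, Erg and Socs2 had their highest level in pro-B-like, Hmgb2 in cycling pre-B-like, Polm in small pre-B-like, Spib in immature B-like and Cd22 and Bcl2 in mature B-like cells. Within mature B-like cells of the DRG the ratio of Bcl2 was still 1.41.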

How the data were processed

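Single-cell RNA was counted in 4 mouse libraries, 1 per group. The files the authors deposited hold UMI counts by gene and barcode without normalization. Cell Ranger 7.2.0 is named per the file headers, and mm10 per the submitters' processing notes. No source used here gives the kit chemistry or says whether intron reads were counted. A barcode needed 200 genes and no more than 20% mitochondrial UMIs, which left out 65 and 108 of the 1NMPP1 growth plate, 80 and 100 of the vehicle growth plate, 355 and 56 of the 1NMPP1 DRG and 393 and 344 of the vehicle DRG. Scrublet scores marked 0.8% per 1000 barcodes among all barcodes, 1115, 731, 55 and 108 in the same order, and marked barcodes were removed. Some of these had already failed the limits above. This left 10541, 8665, 2153 and 2841 kept cells, with a median depth of 7078, 6504, 7028 and 10462 UMIs. Each tissue was clustered (scanpy 1.11.5, leidenalg 0.10.2, 2000 variable genes, 30 components, 20 neighbours, Leiden resolution 1) with the 10 genes left out. B lineage cells of both tissues were pooled and clustered again, also without immunoglobulin and sex-linked transcripts. Class names needed a mean log2 score of at least 1 and 3 detected markers. Rules for splitting clusters and for telling cycling pro-B-like clusters (pro-B score of at least 0.2) were settled after the data were seen.

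UMIs were summed per library and stage and divided by all UMIs of those cells (CPM). CPM carry exact Poisson, shares exact Clopper-Pearson and ratios exact conditional intervals at 95%. Log2 ratios used 0.5 UMI added to each sum and needed 20 UMIs, and a gene passed at 1.5-fold. A count of 0 is given with the level that 3 counts allow. The ratio step was also run on simulated counts for the growth plate B lineage comparison. That was done after the ratios were computed, and its outcome is not given here. All 10 genes were named by rule. In each list the 2 genes with the widest stage range and the highest and lowest growth plate ratio were named, and by likeness the 3 nearest with at least 100 UMIs. Other examples were chosen after their values were seen. Positions are from the GRCm38 annotation (GENCODE M21) and promoters from RefSeq. The 10 genes and the lists were chosen with earlier results of these data known. The gene of the targeted kinase is not reported here.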

Additional observations from a re-analysis of the deposited data

Results flagged for a closer look

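In several genes the log2 ratio of 1NMPP1 over vehicle had opposite signs in the growth plate and the DRG, with both counting intervals clear of 0. Each tissue has 1 library per treatment, and the difference between tissues was not tested. Over all B lineage cells, Vpreb1 was at 0.21 in the growth plate and -0.87 in the DRG, and Igll1 at 0.20 and -0.90. Cd79a was at -0.081 in the growth plate and 0.24 in the DRG, and Cd79b at -0.053 and 0.094. Ebf1 stood at -0.23 in the growth plate and 0.18 in the DRG, and Pax5 at -0.24 and 0.14. In cycling pre-B-like cells Ebf1 was at -0.24 in the growth plate and 0.32 in the DRG. In small pre-B-like cells Cd79b was at 0.091 in the growth plate and -0.20 in the DRG, and Ebf1 at -0.21 and 0.33.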

How the results depend on the processing

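No paired analysis was possible because each group has 1 library. The median ratio of the 10 genes over the growth plate B lineage, -0.05, was 0.017 with each cell weighing alike, 0.018 in female-called cells alone and 0.0013 without pro-B-like and cycling pro-B-like cells, a setting chosen after seeing the data. The DRG median of -0.20 ran between -0.30 and -0.18, and was -0.24 without clusters led by hemoglobin or glial genes. In the growth plate, leaving out 2 clusters of high mitochondrial share gave -0.21 for Ebf1 and -0.23 for Pax5. Both settings were chosen after seeing the data. The log2 ratio of the B lineage share of kept cells, -0.02 in the growth plate, was -0.27 in female-called cells. In the DRG it was 0.37, against -0.051 in male-called cells and -0.23 as a share of blood cells. Dntt in the DRG, -0.61, was 0.13 in male-called cells. Of the counts of genes past 1.5-fold, those lower in pro-B-like cells went to 2 with no doublets removed and to 0 with stages taken from marker UMIs. For mature B-like over small pre-B-like cells, stages from marker UMIs gave 3 higher and 2 lower, and with Kit alone for pro-B, added after seeing the data, 3 higher and 1 lower. By marker UMIs the ratios of Dntt, Vpreb1 and Igll1 with 1NMPP1 were 5.02, 4.68 and 5.21, and that of Vpreb1 with vehicle 2.30. With Kit alone they were 3.33, 3.24 and 3.14, with Vpreb1 at 4.39 and Rag2 at 0.14 with vehicle. The cause was not tested. Joint detection in pro-B-like cells follows depth: at 1000 UMIs Rag1 with Rag2 was in 4.83% with 1NMPP1 and 8.28% with vehicle, at 4000 UMIs in 29.4% with 1NMPP1 and 35.0% with vehicle. Vpreb1 with Igll1 was in 67.1% with 1NMPP1 and 71.0% with vehicle at 1000 UMIs, and in 95.2% and 100% at 4000 UMIs. Of the single-gene ratios by treatment or tissue, 157 of 230 moved by less than their counting interval and 72 by more. Of those by stage it was 270 and 258 of 537, and mature B-like cells with 0 UMIs of Dntt or Vpreb1 gave no ratio with each cell weighing alike. Low counts limit Dntt, Vpreb1 and Igll1 after the pro-B stage and every DRG stage but 2.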
